A study of Mus musculus with 5 samples.

Results

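The interferon response genes described here are 32 mouse genes chosen by name, with earlier results of these data known. They comprise 22 antiviral genes of the type I interferon response and 10 GTPase genes, of which 6 encode guanylate-binding proteins (GBP) and 4 encode immunity-related GTPases (IRG). All 32 had an entry among the 24970 genes counted, and 31 passed the filter on low counts. The exception was Oas3, with 4 to 10 counts per library.

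RNA was sequenced from urothelium, the epithelial lining of the bladder, dissected off the muscle of mice aged 10 weeks. The 3 knockouts (KO 1 to KO 3) had the genotype Krt5CreERT2;Ncstnflox/flox, in which the promoter of Krt5, a keratin of basal cells, drives a ligand-activated Cre that deletes floxed Ncstn. The 2 wild types (WT 1 and WT 2) were C57Bl/6 mice, and each library was 1 mouse. Ncstn encodes Nicastrin, a subunit of the gamma-secretase that cleaves Notch receptors, and the comparison asks how the tissue changes without it. No strain background of the knockouts, and no scheme for activating Cre, is given in the sources used. Loss of Ncstn, strain background, Cre and its activation therefore cannot be told apart.

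Gene counts per library were 12608836 to 27188499 in the knockouts and 19384171 and 13936790 in WT 1 and WT 2. Ncstn itself was at 114, 117 and 123 CPM in KO 1 to KO 3, against 144 and 130 CPM in WT 1 and WT 2 (edgeR adjusted p = 0.133). These counts cover the whole gene and all dissected cells, so they do not check the deletion. CPM are counts scaled to a common library total, with TMM factors. The urothelial markers were abundant in every library, with 8 genes summing to 13900 to 15600 CPM in the knockouts and 9580 and 10500 CPM in the wild types. Of the 8, 4 rose by edgeR, against 9.64% of all tested genes. Most of these calls were lost without WT 1, and 2 of the 8 rose without KO 2. Fibroblast markers were abundant too, with 6 genes summing to 8230 to 9880 CPM in the knockouts and 15900 and 14000 CPM in the wild types. The ribosomal RNA entry Rn45s took 1.53%, 1.14% and 0.608% of gene counts in the knockouts and 7.84% and 3.23% in the wild types. With Rn45s included, the pair of wild types differed by 38.4 times counting error, against 9.70 to 20.5 times for pairs of knockouts. The median SD of log2 CPM over all tested genes was 0.116 in the wild types (n = 2) and 0.136 in the knockouts (n = 3). An SD from 2 libraries tends to lie lower than one from 3, so these medians do not rank the genotypes by spread.

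Type I interferons bind the receptor pair Ifnar1 and Ifnar2 on nearly all cells, and the kinases Jak1 and Tyk2 then pass the signal on. Stat2 and Irf9 are parts of the complex that then binds the interferon-stimulated response element (ISRE) upstream of antiviral genes. Interferon gamma acts through its own receptor and the gamma-activated site (GAS), and is the classical inducer of GBP and IRG genes. Many of these genes also have a low tonic expression without infection, in epithelium as in leukocytes.

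The promoter stretches that carry the ISRE are shown first, because they are what most of these genes share. RefSeq promoter windows (GRCm38.p6) were found for 24 of the 32 genes. In the 250 bases upstream of the annotated start, the ISRE core, GAAA and again GAAA after any 2 bases, searched on both strands, was present in 16 of the 24 genes, against 3.46% of all 27025 genes with such a window, counting a gene once if any of its windows matched. Overlapping matches were allowed. The GAS letters TTCNNNGAA were in 8 of the 24 genes, against 8.13% of all genes. All 7 GBP and IRG genes with a window held an ISRE core and 4 of them a GAS, while 9 and 4 of 17 antiviral genes did. The stretches below read 5′ to 3′ on the gene's strand, with the ISRE core in capitals. They come from antiviral genes that fell most, from GTPase genes that fell, and from Bst2 and Irgm1, which did not pass the test.
Ifit1, chr19:34640770-34640828, plus strand: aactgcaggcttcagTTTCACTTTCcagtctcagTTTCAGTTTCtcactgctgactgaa
Ifit3, chr19:34583358-34583431, plus strand: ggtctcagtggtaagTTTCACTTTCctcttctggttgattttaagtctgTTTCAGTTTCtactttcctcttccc
Ifit3b, chr19:34607754-34607827, plus strand: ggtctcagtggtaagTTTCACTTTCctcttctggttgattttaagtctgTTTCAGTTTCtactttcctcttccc
Isg15, chr4:156200860-156200911, minus strand: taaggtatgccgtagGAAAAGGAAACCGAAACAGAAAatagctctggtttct
Rsad2, chr12:26456548-26456587, minus strand: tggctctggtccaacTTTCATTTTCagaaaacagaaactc
Gbp2, chr3:142620589-142620628, plus strand: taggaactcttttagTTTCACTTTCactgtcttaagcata
Igtp, chr11:58199507-58199546, plus strand: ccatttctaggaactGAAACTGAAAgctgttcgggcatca
Irgm2, chr11:58214898-58214937, plus strand: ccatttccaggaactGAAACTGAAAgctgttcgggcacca
Irgm1, chr11:48871421-48871465, minus strand: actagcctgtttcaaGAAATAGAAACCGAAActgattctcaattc
Bst2, chr8:71537572-71537617, minus strand: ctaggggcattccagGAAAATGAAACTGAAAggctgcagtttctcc
The Ifit3 and Ifit3b stretches are the same in every base. Tested genes with an ISRE core fell in 12 of 15 cases (median log2 fold change -1.03), those with a window but no core in 6 of 8 (median -0.99), and those with no window in 5 of 8 (median -1.26). Over all tested genes 10.0% fell. A match is a match of letters and shows no binding. A window without the core can still have an element with other letters or further upstream, so this split does not separate genes with and without an ISRE.

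**Figure D1:**
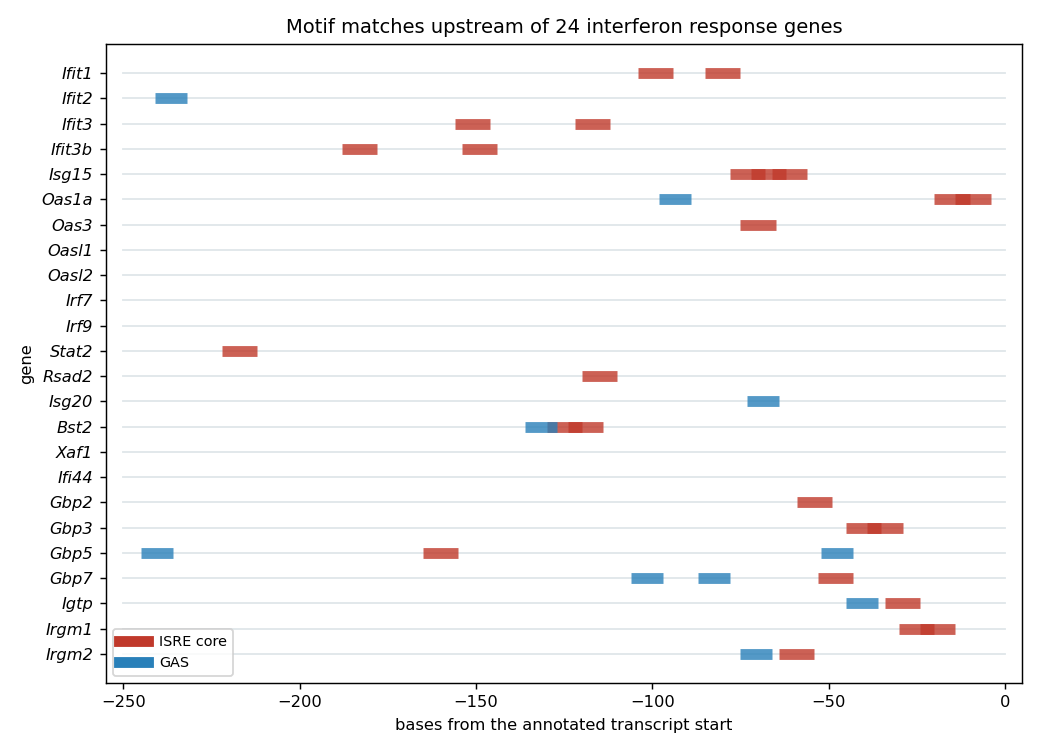
Position of ISRE core (red) and GAS (blue) letter matches in the 250 bases upstream of the annotated start of 24 interferon response genes, with bases from the start on the x axis and 1 row per gene. Matches from every annotated start of a gene are drawn on its row, 16 genes hold an ISRE core, and Bst2 and Irgm1 hold one as do genes that fell.

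Most interferon response genes fell in the Ncstn knockouts. Of 31 tested, 23 fell, 0 rose and 8 did not pass (edgeR quasi-likelihood test, Benjamini-Hochberg adjusted p under 0.05). The number that rose was 0 at an unadjusted p under 0.05 too, and 0 with DESeq2 and limma-voom. Over all 14779 tested genes, 10.0% fell and 9.64% rose. Because the genes were chosen with earlier results of these data known, this contrast is a description. The median log2 fold change was -1.13 over the 31 genes and 0.01 over all tested genes. All 31 had a fold change below 0. In 29 of them each knockout lay below both wild types, as it did in 25.1% of all tested genes, and the 2 that overlapped were Usp18 and Bst2. Among the antiviral genes 14 of 21 fell (median -1.13), and among the GBP and IRG genes 9 of 10 fell (median -1.10). A difference between these groups was not tested. Without ribosomal and nuclear RNA entries the number that fell was also 23, but the part of RNA or library quality, which differed by genotype in the share of Rn45s, was not tested. In bulk tissue, fewer cells of a type and less RNA per cell cannot be told apart.

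Without WT 1 the number of these genes that fell was 15, and without WT 2 it was 11. Antiviral genes that fell then numbered 8 in either case, and GBP and IRG genes 3 without WT 2. With 1 wild type left, its spread is taken from the knockouts. Leaving out KO 1, KO 2 or KO 3 gave 20, 21 and 26. The number of calls over all tested genes also moved widely across these 5 fits. The median log2 fold change stayed between -1.27 and -1.0 for antiviral genes and between -1.31 and -0.98 for GBP and IRG genes. Across all 5 such fits, 9 genes fell in each, namely Ifit1, Ifit2, Ifit3, Oasl2, Rsad2, Ifi27l2a, Gbp3, Gbp4 and Irgm2.

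**Figure D2:**
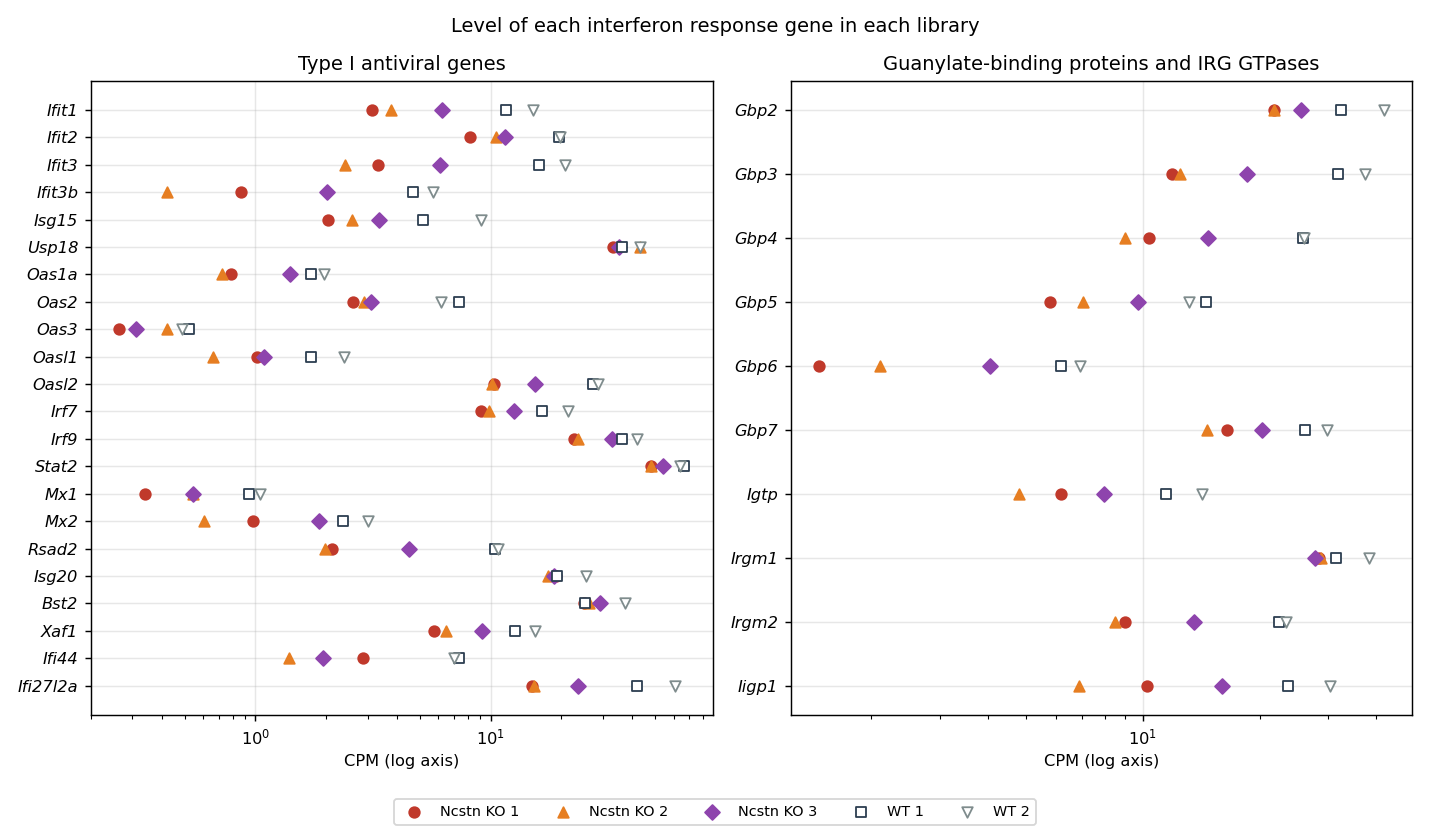
CPM on a log axis of each interferon response gene in each library, antiviral genes in the left panel and GBP and IRG genes in the right, with filled symbols for Ncstn KO 1 to KO 3 and open symbols for WT 1 and WT 2. In 29 of the 31 tested genes the filled symbols all lie left of the open ones, and KO 3 is most often the knockout nearest the wild types.

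The IFIT genes, whose products bind foreign RNA and block its translation, all fell, with a median log2 fold change of -1.96. The 4 genes lie on chromosome 19 between 34550694 and 34650009 (GRCm38), an interval that also holds Ifit1bl1, which did not pass (edgeR adjusted p = 0.612). Ifit3, which encodes a partner that stabilises Ifit1 protein in human cells, was at 3.31, 2.41 and 6.07 CPM in KO 1 to KO 3, against 16.1 and 20.8 CPM in WT 1 and WT 2. Its fold change was 4.82-fold lower (log2 -2.27 ± 0.29 SE; edgeR adjusted p = 0.000858). The groups were well apart, and KO 3 was the highest knockout. Ifit3b, its close copy, was at 0.866, 0.421 and 2.02 CPM in the knockouts and 4.70 and 5.72 CPM in the wild types (log2 -2.31 ± 0.44; edgeR adjusted p = 0.00641). KO 3 again stood above the other knockouts and below both wild types. Of the 50-base stretches in Ifit3 transcripts, 51.2% also occur in Ifit3b, so reads from either gene can be lost or split, and the values of both are uncertain. Ifit1, a sensor of RNA caps that lack the host's methyl mark, was at 3.12, 3.79 and 6.23 CPM in the knockouts and 11.6 and 15.2 CPM in the wild types, and fell 3.14-fold (edgeR adjusted p = 0.00262). Ifit2, at 8.21, 10.6 and 11.5 CPM in the knockouts and 19.5 and 19.7 CPM in the wild types, fell 1.96-fold (edgeR adjusted p = 0.00312). In neither gene did the groups overlap. The call of Ifit3b was lost when WT 1 or WT 2 was left out (edgeR adjusted p = 0.0627 and 0.0675).

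Of Isg15 and Usp18, Isg15 fell and Usp18 did not pass. Isg15 encodes a ubiquitin-like protein that is coupled to other proteins during the antiviral response. It was at 2.03, 2.59 and 3.35 CPM in KO 1 to KO 3, against 5.17 and 9.06 CPM in WT 1 and WT 2, and fell 2.72-fold (edgeR adjusted p = 0.00939, and 0.112 without WT 2). Usp18 removes Isg15 from proteins and restrains the type I receptor. It was at 33.1, 43.0 and 35.3 CPM in the knockouts and 36.3 and 43.3 CPM in the wild types, with a log2 fold change of -0.10 ± 0.14 (SE; edgeR adjusted p = 0.638). The Usp18 values of the genotypes overlapped. An annotated long noncoding RNA overlaps Usp18 exons on the opposite strand, and the strand setting of the counting is not known here.

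Active members of the OAS family make short adenylate chains that activate RNase L, which degrades RNA. Of 4 tested, Oas2 and Oasl2 fell and Oas1a and Oasl1 did not pass. Oasl2 was at 10.3, 10.1 and 15.4 CPM in the knockouts and 27.3 and 28.7 CPM in the wild types (2.37-fold lower; edgeR adjusted p = 0.00140). Oas2 was at 2.60, 2.89 and 3.11 CPM in the knockouts and 7.37 and 6.13 CPM in the wild types (2.38-fold lower; edgeR adjusted p = 0.00389, and 0.0795 without WT 1). In neither gene did the groups overlap. Oas1a averaged 0.971 ± 0.374 CPM in the knockouts (SD, n = 3) and 1.84 ± 0.161 CPM in the wild types (SD, n = 2; edgeR adjusted p = 0.104). Oasl1, which in mice restrains translation of Irf7, averaged 0.923 ± 0.229 and 2.05 ± 0.457 CPM in knockouts and wild types (edgeR adjusted p = 0.0533). All knockouts lay below both wild types in these 2 genes as well, and both passed without KO 3 (edgeR adjusted p = 0.0233 for Oas1a and 0.0296 for Oasl1). Oasl1 also passed with upper-quartile scaling (edgeR adjusted p = 0.0483) and with no filter (0.0395). Oas1a shares 57.6% of its 50-base stretches with Oas1g and is uncertain for that reason.

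The 3 transcription factors among the interferon response genes chosen here all fell, by 1.30-fold to 1.81-fold. Of 5 other interferon regulatory factor genes, 0 passed the edgeR test. Their log2 fold changes ran from -0.324 to 0.288, with a median of 0.055. The outermost were Irf5 (-0.324; edgeR adjusted p = 0.0975) and Irf2 (0.288; edgeR adjusted p = 0.0712). Irf7, which drives transcription of interferon alpha genes, was at 9.15, 9.86 and 12.6 CPM in KO 1 to KO 3, against 16.6 and 21.3 CPM in WT 1 and WT 2. It fell 1.81-fold (edgeR adjusted p = 0.00887). Irf9, the DNA-binding subunit of the type I complex, fell 1.49-fold, with 26.4 ± 5.62 CPM in the knockouts (SD, n = 3) and 39.1 ± 4.0 CPM in the wild types (SD, n = 2; edgeR adjusted p = 0.0306). Its partner Stat2 was at 48.2, 48.0 and 54.4 CPM in the knockouts and 66.7 and 64.0 CPM in the wild types (1.30-fold lower; edgeR adjusted p = 0.0227). In all 3 genes the groups did not overlap, and KO 3 was nearest the wild types. Of the 5 fits that leave out a library, Irf9 and Stat2 passed in the one without KO 3, with an edgeR adjusted p of 0.0816 to 0.172 for Irf9 and 0.0663 to 0.147 for Stat2 in the other 4, and Irf7 did not pass without WT 2 (0.0861). Irf9 shares annotated exons with Rnf31 on its own strand and Irf7 with Phrf1 on the opposite strand. Neither neighbour passed the test (edgeR adjusted p = 0.684 for Rnf31 and 0.604 for Phrf1).

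Among the other antiviral effectors, Rsad2, Ifi44, Ifi27l2a and Xaf1 fell. Rsad2 encodes viperin, an enzyme that makes a chain-terminating nucleotide. It was at 2.11, 1.99 and 4.52 CPM in the knockouts and 10.5 and 10.8 CPM in the wild types, and fell 3.85-fold (edgeR adjusted p = 0.00233). Ifi27l2a was at 15, 15.3 and 23.4 CPM in the knockouts and 42.05 and 61.1 CPM in the wild types, and fell 2.91-fold (edgeR adjusted p = 0.00106). Both showed KO 3 above the other knockouts. In Ifi44 the highest knockout was KO 1, with 2.86, 1.38 and 1.95 CPM in KO 1 to KO 3, against 7.37 and 6.97 CPM in WT 1 and WT 2. It fell 3.37-fold (edgeR adjusted p = 0.00275, and 0.05 without WT 1, where it did not pass). Xaf1, an antagonist of the apoptosis inhibitor XIAP, fell 2.00-fold (edgeR adjusted p = 0.00922, with 0.0539 without WT 1 and 0.0851 without WT 2).

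Mx1, Mx2, Isg20 and Bst2 did not pass. The dynamin-like GTPase gene Mx1, which is known to be defective in C57BL/6 and many other inbred strains, averaged 0.475 ± 0.118 CPM in the knockouts (SD, n = 3) and 0.993 ± 0.0745 CPM in the wild types (SD, n = 2; edgeR adjusted p = 0.104). Its neighbour Mx2 averaged 1.15 ± 0.651 and 2.67 ± 0.457 CPM in knockouts and wild types (edgeR adjusted p = 0.0606). GENCODE types Mx2 as a polymorphic pseudogene, and the part of strain in its values was not tested. Mx2 passed without KO 3 (edgeR adjusted p = 0.00397), with no filter (0.0111) and with limma-voom (0.0342). Counts were 7 to 18 per library for Mx1 and 10 to 45 for Mx2. Isg20, an exonuclease gene, and Bst2, which encodes the virus-tethering protein tetherin, had many more reads, with log2 fold changes of -0.27 ± 0.14 and -0.22 ± 0.16 (SE; edgeR adjusted p = 0.195 and 0.356). Bst2 was at 25, 26.3 and 29.2 CPM in the knockouts and 25.3 and 37.3 CPM in the wild types, so the groups overlapped.

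**Figure D3:**
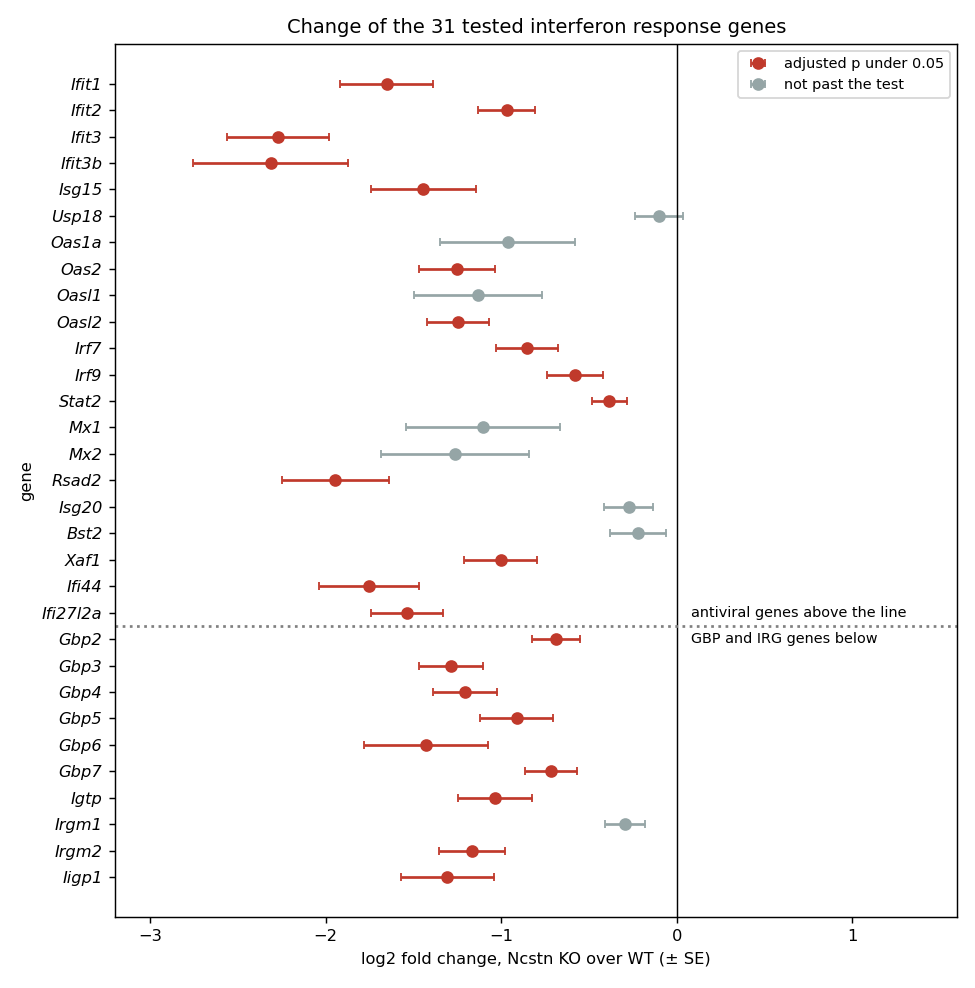
Log2 fold change, Ncstn KO over WT, with its SE for the 31 tested interferon response genes, ordered by role from the IFIT genes at the top to the IRG genes at the bottom. Red points passed the edgeR test and grey ones did not, and all 31 lie below 0.

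The guanylate-binding proteins assemble on the vacuoles of intracellular microbes. All 6 fell, at both of their gene clusters. On chromosome 3, between 142493978 and 142638008 (GRCm38), lie Gbp5, Gbp7, Gbp3 and Gbp2, and on chromosome 5, between 105115767 and 105293698, lie Gbp4 and Gbp6. Gbp3 was at 11.9, 12.4 and 18.6 CPM in KO 1 to KO 3, against 31.8 and 37.3 CPM in WT 1 and WT 2, and fell 2.44-fold (edgeR adjusted p = 0.00138). Gbp4 was at 10.4, 9.02 and 14.7 CPM in the knockouts and 25.9 and 26 CPM in the wild types, and fell 2.31-fold (edgeR adjusted p = 0.00193). The wild types nearly coincided for Gbp4, and KO 3 was the nearest knockout in both genes. The other members on chromosome 3 fell less than 2-fold: Gbp2 by 1.61-fold, Gbp5 by 1.88-fold and Gbp7 by 1.64-fold (edgeR adjusted p = 0.00749, 0.0144 and 0.00923). Gbp6 was at 1.47, 2.11 and 4.05 CPM in the knockouts and 6.16 and 6.90 CPM in the wild types, and fell 2.70-fold (edgeR adjusted p = 0.0197). It shares 70.7% of its 50-base stretches with other genes, mainly the overlapping gene model Gm43302, and is uncertain. Leaving out WT 2 ended the calls of Gbp2 and Gbp7 (edgeR adjusted p = 0.0710 and 0.0768), and Gbp5 passed neither without WT 1 nor without WT 2 (0.142 and 0.0654). For Gbp6 the edgeR adjusted p was 0.124, 0.117 and 0.0510 without WT 1, WT 2 and KO 1.

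The IRG proteins act on the same vacuoles, with Iigp1 as an effector and Irgm1, Irgm2 and Igtp (Irgm3) as regulators that keep effectors off the cell's own membranes. Iigp1 was at 10.2, 6.86 and 16 CPM in KO 1 to KO 3, against 23.7 and 30.3 CPM in WT 1 and WT 2, and fell 2.47-fold (edgeR adjusted p = 0.00850). KO 3 was again the nearest knockout. Among the regulators, Irgm2 fell 2.24-fold (edgeR adjusted p = 0.00269) and Igtp 2.05-fold (edgeR adjusted p = 0.00868). Irgm1 was at 28.4, 28.9 and 27.8 CPM in the knockouts and 31.4 and 38.2 CPM in the wild types, with a log2 fold change of -0.29 ± 0.12 (SE; edgeR adjusted p = 0.0998). All its knockouts lay below both wild types and close together, with an SD of 0.538 CPM. Igtp and Irgm2 overlap in the annotation and share 11.8% of the 50-base stretches of Igtp. Without WT 2 the calls of Iigp1 and Igtp were lost (edgeR adjusted p = 0.0838 and 0.0831).

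The 3 knockouts were not alike. KO 3 was the highest knockout in 27 of 31 genes, as it was in 35.7% of all tested genes. The median over the 31 genes of log2 CPM, set against the mean of the wild types, was -1.29, -1.37 and -0.74 in KO 1 to KO 3, against -0.13 and 0.13 in WT 1 and WT 2. For all tested genes these medians lay between -0.001 and 0.025. Antiviral genes gave -1.29, -1.22 and -0.76 in the knockouts, and GBP and IRG genes -1.28, -1.41 and -0.68, so both groups placed KO 3 between the other knockouts and the wild types. The ratio of KO 3 to the mean of KO 1 and KO 2 was 3.15 for Ifit3b, 2.37 for Mx2, 2.27 for Gbp6, 2.21 for Rsad2 and 2.12 for Ifit3, and 0.917 for Ifi44. Even so, 30 of 31 genes were lower in KO 3 than in both wild types, against 37.7% of all tested genes, and Bst2 was the exception. The SD of log2 CPM among the knockouts had a median of 0.35 over the 31 genes and 0.14 over all tested genes. Counts went down to 7 for Ifit3b in KO 2, and the part of counting error in this spread was not tested. Irgm1 had the smallest spread of the 31, with an SD of 0.03.

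**Figure D4:**
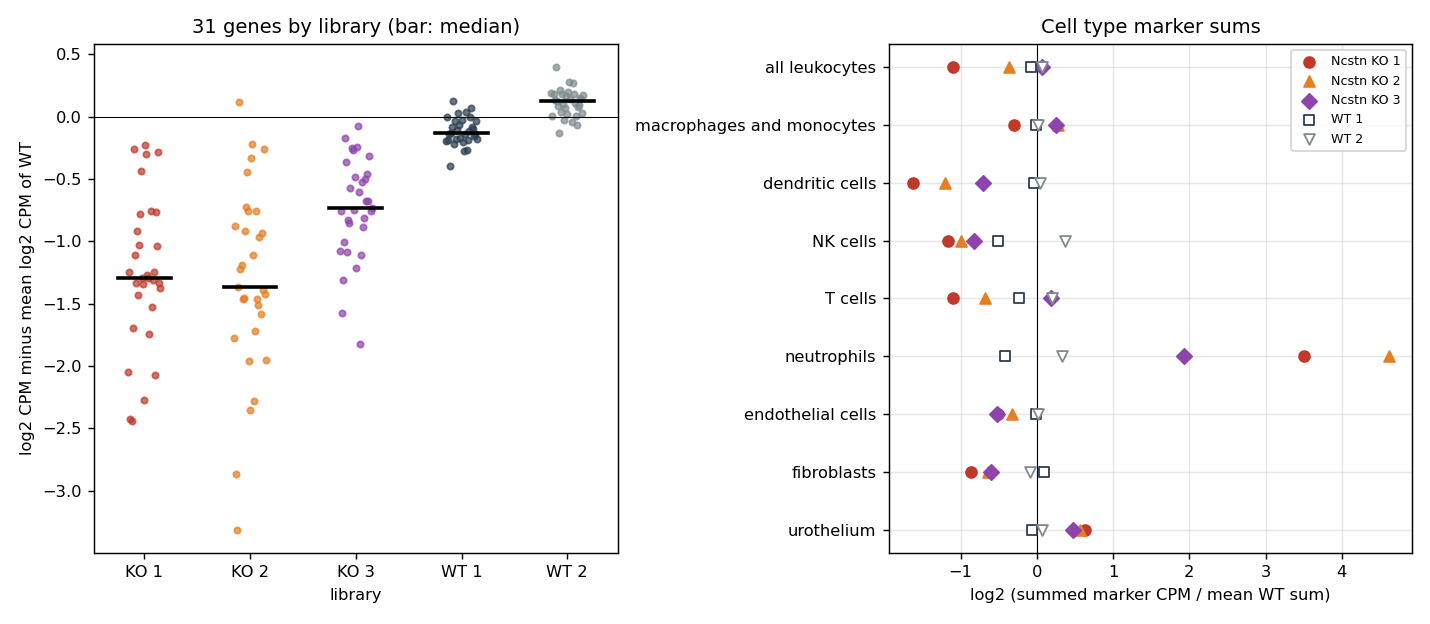
Left, log2 CPM minus the mean log2 CPM of the wild types for the 31 tested interferon response genes in each library, with a bar at the median. Right, summed CPM of cell type markers in each library as log2 against the mean of the wild types, where KO 3 lies near the wild types for leukocyte and T cell markers and with the other knockouts for endothelial and fibroblast markers.

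Leukocyte and dendritic cell marker sums were lowest in KO 1 and highest among the knockouts in KO 3. The 4 general leukocyte markers summed to 25, 41.4 and 55.8 CPM in KO 1 to KO 3, against 50.8 and 56.2 CPM in WT 1 and WT 2, and 0 of 4 passed the edgeR test (1 at an unadjusted p under 0.05, 0 with DESeq2 and 1 with limma-voom). Ptprc, which encodes the common leukocyte antigen CD45, was at 4.03, 4.99 and 11.7 CPM in the knockouts and 12.6 and 12.7 CPM in the wild types (edgeR adjusted p = 0.0924, and 4.32e-05 without KO 3, and 0.0243 with limma-voom). The leukocyte sum of KO 3 lay between those of the wild types, and Ptprc in KO 3 lay below both. The 6 dendritic cell markers summed to 3.91, 5.23 and 7.40 CPM in the knockouts and 11.8 and 12.4 CPM in the wild types, and Flt3 (5.91-fold; edgeR adjusted p = 0.0141) and Cd209a (5.48-fold; 0.00541) fell. Of 10 macrophage and monocyte markers, the monocyte chemokine receptors Ccr2 (4.74-fold; edgeR adjusted p = 0.000324) and Cx3cr1 (2.07-fold; 0.0165) fell. The list did not move as 1: its median log2 fold change was 0.10, and 4 of the 10 were below 0. Each knockout lay below both wild types in 3 of these markers and above both in 2. Over all tested genes these shares were 25.1% and 25.9%, and 10.0% fell by edgeR. The list summed to 150, 224 and 221 CPM in the knockouts and 184 and 186 CPM in the wild types. Flt3 did not pass without either wild type (edgeR adjusted p = 0.0750 and 0.128), Cd209a not without WT 1 (0.0822), and Cx3cr1 not without WT 1, WT 2 or KO 1 (0.142, 0.0800 and 0.0561).

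The 7 natural killer cell markers summed to 1.66 to 2.1 CPM in the knockouts and 2.61 and 4.81 CPM in the wild types. Klrk1, the 1 natural killer marker that could be tested, fell (edgeR adjusted p = 0.0193, with 0.0672, 0.178 and 0.0636 without WT 1, WT 2 and KO 1). The 5 T cell markers summed to 2.30 to 5.61 CPM in the knockouts and 4.18 and 5.65 CPM in the wild types. The 6 B and plasma cell markers summed to 2.37 to 3.50 CPM in the knockouts and 2.25 and 1.25 CPM in the wild types. The sum of the 6 neutrophil markers ran against the interferon response genes, with 27.0, 58.5 and 9.11 CPM in KO 1 to KO 3, against 1.78 and 3.00 CPM in WT 1 and WT 2. The largest parts of it were S100a8 (9.67, 15.9 and 2.96 CPM in KO 1 to KO 3) and S100a9 (12.3, 31.1 and 3.97 CPM). In 4 of the 6 markers each knockout lay above both wild types, as it did in 25.9% of all tested genes. Of 5 tested 3 rose by edgeR, 1 of 5 without WT 1, 2 of 5 without WT 2 and 1 of 5 with limma-voom. KO 3 was the lowest knockout for neutrophil markers and the highest for leukocyte markers as a whole. Endothelial markers summed to 222 to 254 CPM in the knockouts and 317 and 323 CPM in the wild types, and 2 of 6 fell (Kdr and Cdh5; the call of Cdh5 was lost without WT 1, at an edgeR adjusted p of 0.0838). Fibroblast markers summed to 8230 to 9880 CPM in the knockouts and 15900 and 14000 CPM in the wild types. By edgeR 6 of 6 fell, but most of these calls were lost without WT 1, and 4 of 6 fell without KO 1. Over all tested genes 10.0% fell and 9.64% rose by edgeR, and the number of these calls also moved when a library was left out. Smooth muscle markers summed to 197 to 304 CPM in the knockouts and 190 and 236 CPM in the wild types, with 0 of 5 past the edgeR test (2 at an unadjusted p under 0.05, 2 with DESeq2 and 0 with limma-voom). No list had a marker at 0 in all libraries. The part of these cell types in the decline of the interferon response genes was not tested.

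Of the pathway's 6 receptor genes 0 passed the edgeR test (3 at an unadjusted p under 0.05, and 0 with DESeq2 or limma-voom), and of its 3 kinase genes 0 passed (0 at an unadjusted p under 0.05, and 0 with DESeq2 or limma-voom). The type I receptor genes Ifnar1 and Ifnar2 had log2 fold changes of -0.25 ± 0.09 and -0.003 ± 0.097 (SE; edgeR adjusted p = 0.0704 and 0.984). The interferon gamma receptor genes Ifngr1 and Ifngr2 were at 0.21 ± 0.09 and 0.19 ± 0.09 (adjusted p = 0.134 and 0.152), and the interferon lambda receptor genes Ifnlr1 and Il10rb at 0.30 ± 0.11 and 0.17 ± 0.09 (0.0723 and 0.189). Jak1, Jak2 and Tyk2 had log2 fold changes of -0.09, -0.13 and -0.04 (edgeR adjusted p = 0.532, 0.370 and 0.800). Ifnar1 passed with upper-quartile scaling (edgeR adjusted p = 0.0415) and with a filter at 5 CPM (0.0380).

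Interferon transcripts had few or no counts. Ifnb1, Ifna1, Ifna2, Ifna4 and Ifnl2 had 0 counts in all 5 libraries, which allows up to 0.113 to 0.234 CPM per library at a floor of 3 counts. Ifng had 1 count in WT 2, Ifnk had 4 in WT 1 and Ifnl3 had 2 in KO 1. Ifne, the interferon epsilon of epithelia, had 9, 5 and 2 counts in KO 1 to KO 3, against 8 and 4 counts in WT 1 and WT 2.

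Of 64 other pathway genes tested out of 81 listed, 16 fell, 2 rose and 46 did not pass, with a median log2 fold change of -0.13. Over all tested genes 10.0% fell and 9.64% rose. Among nucleic acid sensors and adaptors 3 of 12 fell: the cytosolic RNA sensor gene Ifih1 (1.51-fold), its regulator Dhx58 (2.00-fold) and the Z-nucleic acid sensor gene Zbp1 (2.45-fold; edgeR adjusted p = 0.00581, 0.00942 and 0.00684). The sensor gene Ddx58 (RIG-I) and the adaptor gene Mavs both had log2 fold changes of 0.07 (edgeR adjusted p = 0.606 and 0.631), and these 2 were chosen after their values were seen. Of 24 other antiviral targets, 8 fell, including Sp100 (1.95-fold), Ddx60 (2.62-fold), Herc6 (1.73-fold) and Trim30a (1.51-fold; edgeR adjusted p = 0.00152, 0.00790, 0.00847 and 0.0134). Of 5 further GBP and IRG genes, Gbp9 fell 2.32-fold (edgeR adjusted p = 0.000564), Gbp8 2.33-fold (0.00798) and Ifi47 1.96-fold (0.00592), while the other 2 did not pass. Gbp4 shares annotated exons on its own strand with both Gbp8 and Gbp9, so reads of these 3 genes may not be fully separate. The pathway genes that changed numbered 6 without WT 1 and 5 without WT 2. Without WT 1 the calls of Ifih1 (edgeR adjusted p = 0.0711), Dhx58 (0.0698), Ddx60 (0.0965), Herc6 (0.106) and Trim30a (0.117) were lost, and without WT 2 those of Dhx58 (0.0780), Zbp1 (0.0797), Ddx60 (0.0559), Trim30a (0.0560), Gbp8 (0.0921) and Ifi47 (0.0664).

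Of 4 feedback inhibitors 1 rose, 1 fell and 2 did not pass. Socs3, which is induced by Stat3 and blocks cytokine receptors that signal through gp130, rose 6.71-fold, with 47.8, 65.3 and 45.6 CPM in KO 1 to KO 3, against 8.30 and 7.39 CPM in WT 1 and WT 2 (edgeR adjusted p = 2.08e-05). Socs1, which is induced by interferons and blocks their receptors, did not pass (log2 fold change 0.10 ± 0.18 SE; edgeR adjusted p = 0.733). The phosphatase gene Ptpn2 fell 1.29-fold (edgeR adjusted p = 0.0493), a call that was lost on leaving out WT 1, WT 2, KO 1 or KO 2 (0.162, 0.169, 0.103 and 0.132) and with DESeq2 (0.0508). Of 7 listed chemokines and regulators that interferon gamma induces, 4 could be tested, none of them a chemokine. Nlrc5, Cd274 and Ido1 did not pass (edgeR adjusted p = 0.643, 0.138 and 0.233), and Cd274 passed without KO 3 (0.00537) and with no filter (0.0222). Ciita, the master regulator of MHC class II genes, fell 3.07-fold, with 0.941, 0.662 and 2.96 CPM in the knockouts and 4.07 and 4.67 CPM in the wild types (edgeR adjusted p = 0.0413). It passed when KO 3 was left out (9.61e-05), and not when any other library was (0.0866 to 0.193). The other gene that rose was Lgals3bp (1.27-fold; edgeR adjusted p = 0.0431), named after its values were seen. It passed without KO 1 (0.0421) and not without any other library (0.085 to 0.191), nor with upper-quartile scaling (0.0674) or the filter at 5 CPM (0.0756).

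Set per length of exon, the levels of the interferon response genes spanned a wide range. In the knockouts Ifi27l2a stood highest at 38.7 CPM per kb, followed by Bst2 at 29.7, Usp18 at 13.3, Isg20 at 9.87 and Gbp2 at 9.17 CPM per kb. In the wild types the order was Ifi27l2a at 111, Bst2 at 34.7, Gbp2 at 14.8, Usp18 at 14.3 and Isg20 at 12 CPM per kb. The lowest in both was Oas3, at 0.047 CPM per kb in the knockouts and 0.0715 CPM per kb in the wild types. The genes that did not pass included 3 of these most abundant 5 (Bst2, Usp18 and Isg20) as well as low ones such as Mx1 and Oas1a. Across the 31 tested genes, level per kb over all libraries and log2 fold change had a Spearman rho of 0.41, a description of points that share the same 5 libraries. The 16 genes with the higher levels had a median log2 fold change of -0.78 and the other 15 one of -1.25, and 12 and 11 of them fell.

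**Figure D5:**
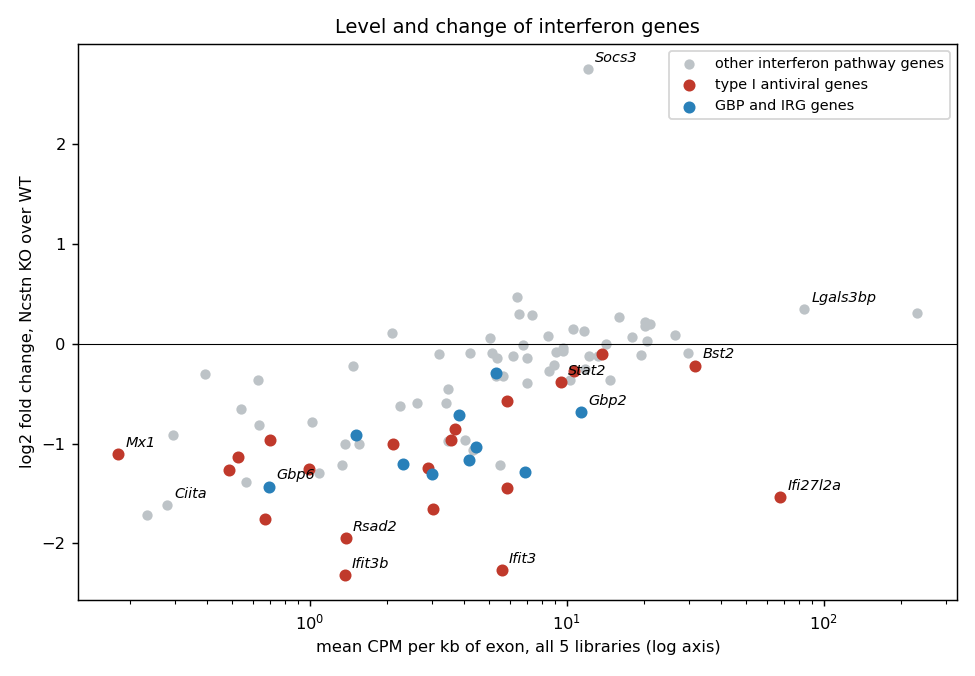
Mean CPM per kb of exon over all 5 libraries (log axis) against log2 fold change, Ncstn KO over WT, for antiviral genes (red), GBP and IRG genes (blue) and other interferon pathway genes (grey). All red and blue points lie below 0, with the abundant Ifi27l2a among the genes that fell most and Socs3 far above the rest.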

How the data were processed

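Libraries were made from total RNA with an Illumina TruSeq kit, per the labels' protocols. HISAT2 2.1.0, HTSeq 0.11.1, DESeq2 and build mm10 are named in the submitters' processing notes. Not given in the sources used here are HTSeq's annotation and strand option. The deposited values were raw gene counts, 1 column per library, and 5 summary entries were left out, so that genes held 49.3% to 60.6% of tallied reads. After filterByExpr (at least 10 counts, total at least 15) and TMM scaling, genes were tested with edgeR 4.0.16 (quasi-likelihood, Benjamini-Hochberg over 14779 genes, threshold 0.05) in R 4.3.3. An SE is the log2 fold change over the square root of F, and fold changes are fitted values. DESeq2 1.42.0 and limma 3.58.1 were alternatives, and the test was checked on simulated data. The precision of CPM values follows from the counts, and floors cover counting error only. Pairs of replicates differed by 9.70 to 38.4 times counting error (chi-square per degree of freedom), so each was kept as a separate sample. Positions and exon lengths come from GENCODE vM21. The members and lists were chosen with earlier results of these data known. All members could be named. Of other pathway genes, receptors, kinases and ligands were named, with up to 4 of smallest p per further role, and up to 2 per marker list. The T cell genes Trbc1 and Trbc2 were not used here. One pathway gene of that rule is not reported here.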

Additional observations from a re-analysis of the deposited data

How the results depend on the processing

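The declines kept their direction under other scaling (RLE, upper-quartile), filters (none, 5 CPM in 2 libraries), DESeq2, limma-voom, and without ribosomal and nuclear RNA entries, and no gene that fell and was tested lost its call under these. The 5 CPM filter left 26 genes tested and 22 of the 23 that fell, without Ifit3b. Oasl1 was gained with upper-quartile scaling and no filter, and Mx2 with no filter and limma-voom. Leaving out 1 library gave 11 to 26 interferon response genes changed (antiviral 8 to 17, GBP and IRG 3 to 9), 5 to 22 other pathway genes and 715 to 3989 of all tested genes. The medians then ran from -1.27 to -1.0 for antiviral genes and -1.31 to -0.98 for GBP and IRG genes. For Usp18 and Bst2, which did not pass, the log2 fold change ran from -0.232 to 0.013 and from -0.485 to 0.066, and was above 0 without WT 2. Whether replicate numbers pair the mice cannot be told from the counts. The correlation of deviations was -0.055 for number 1 and 0.052 for number 2, but the deviations of 2 wild types mirror each other. With the replicate block 4637 of all tested genes changed, and 26 interferon response genes did, with Oas1a, Oasl1 and Mx2 added. The wild-type mean rests on 2 mice, and depth limits the least abundant genes.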
